A study of Homo sapiens with 3 samples.

Results

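The 4 HOX gene clusters and 1 Mb of DNA on either side of each were examined for binding of HMGA1 in DAMI cells, a leukaemic line labelled MPN/AML (myeloproliferative neoplasm and acute myeloid leukaemia). The series mapped HMGA1 by chromatin immunoprecipitation and sequencing (ChIP-seq) with 3 libraries of DAMI cells grown in serum-containing medium: 1 for HMGA1, 1 for the core histone H3, and 1 of input DNA taken without antibody. Each library is a single sample, so differences have no replicate check and no p-value, and every interval covers counting error only. The authors called HMGA1 peaks on the hg19 build once against input DNA (the input list, 385953 peaks) and once against the H3 library (the H3 list, 263033 peaks). A peak was taken as a member by the position of its summit alone, whatever its height. This gave 833 input-list peaks and 564 H3-list peaks, 1397 of the 648986 peaks in the 2 lists (0.215%). The 2 lists come from the same HMGA1 reads and do not replicate each other.

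The cluster cores are HOXA on chromosome 7 from 27130000 to 27250000, HOXB on chromosome 17 from 46600000 to 46810000, HOXC on chromosome 12 from 54330000 to 54450000, and HOXD on chromosome 2 from 176940000 to 177060000. The HOXB core is 210 kb long and the other cores are 120 kb each. A flank is the 1 Mb next to a core, called the left flank on the side of lower coordinates and the right flank on the other.

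HMGA1 is an architectural chromatin protein whose AT hooks hold the minor groove of short A/T-rich stretches of DNA. HOX genes encode homeodomain transcription factors that set position along the body axis in the embryo, and in blood the HOXA genes are active in stem and progenitor cells and in many acute leukaemias, HOXA9 above all. The clusters are compact, rich in CpG islands and poor in repeats, and each is switched as a block by Polycomb and Trithorax complexes. They arose by duplication of 1 ancestral cluster, and so did parts of their surroundings. In the RefSeq gene order the 5 nearest protein-coding neighbours of HOXA on its lower side include CBX3, a heterochromatin protein, and HNRNPA2B1, an RNA-binding protein, next to SKAP2. The related genes CBX1 and SKAP1 lie beside HOXB, and CBX5 and HNRNPA1 beside HOXC together with NFE2, a transcription factor of erythroid cells and megakaryocytes. HOXD has EVX2, a homeobox gene, and LNPK on its lower side, and MTX2, HNRNPA3 and NFE2L2 on its higher side. This gene order comes from the GRCh38.p14 build, and no peak was placed in a gene.

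The promoters of HOX genes are shown here for their content of A and T, the bases that HMGA1 is known to prefer. They are short windows, cover only some of the genes, and do not measure the rest of a core. RefSeq (GRCh38.p14) gave a promoter for 20 of the 39 HOX genes, and the 250 bases before the start were read from it on the strand of the gene. Their median A + T content was 41.0% (quartiles 29.8 and 49.2), against 37.6% (29.6 and 47.2) for 15843 protein-coding promoters. A run of at least 6 consecutive A or T bases is such a run on either strand, though its letters differ. It was present in 17 of the 20 HOX promoters (85.0%), against 52.6% of all promoters. By cluster, sequences were at hand for 9 of 11 HOXA, 1 of 10 HOXB, 2 of 9 HOXC and 8 of 9 HOXD genes. All 9 HOXA promoters had such a run, as did 6 of 8 in HOXD and 2 of 2 in HOXC, where HOXC4 and HOXC5 had the same values. The only HOXB promoter with a sequence, HOXB1, had none. Within HOXA the content ran from 22.0% at HOXA13, below the lower quartile of all promoters and with 1 run, to 52.8% at HOXA2, and HOXA9 had 51.2% with 6 runs, the longest of 12 bases. HOXD promoters ran from 25.2% at HOXD1 to 52.4% at HOXD4. These 5 promoters are printed as the extremes of the clusters with most sequences and the leukaemia gene HOXA9, with runs of at least 6 A or T bases in capitals. A run is a description of these letters, not a binding site.
HOXA2: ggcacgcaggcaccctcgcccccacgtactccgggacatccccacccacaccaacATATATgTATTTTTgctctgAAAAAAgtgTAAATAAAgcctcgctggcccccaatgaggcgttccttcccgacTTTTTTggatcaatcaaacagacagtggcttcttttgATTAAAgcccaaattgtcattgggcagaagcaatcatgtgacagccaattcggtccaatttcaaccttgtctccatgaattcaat
HOXA9: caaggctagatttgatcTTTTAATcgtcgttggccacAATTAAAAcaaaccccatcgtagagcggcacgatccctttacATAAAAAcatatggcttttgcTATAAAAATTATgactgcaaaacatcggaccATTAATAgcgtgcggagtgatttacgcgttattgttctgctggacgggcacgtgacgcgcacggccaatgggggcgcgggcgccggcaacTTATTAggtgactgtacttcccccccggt
HOXA13: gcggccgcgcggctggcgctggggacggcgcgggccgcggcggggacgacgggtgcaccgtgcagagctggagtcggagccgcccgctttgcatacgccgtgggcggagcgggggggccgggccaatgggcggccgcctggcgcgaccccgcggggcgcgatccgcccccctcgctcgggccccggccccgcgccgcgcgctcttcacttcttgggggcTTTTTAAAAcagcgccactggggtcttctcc
HOXD1: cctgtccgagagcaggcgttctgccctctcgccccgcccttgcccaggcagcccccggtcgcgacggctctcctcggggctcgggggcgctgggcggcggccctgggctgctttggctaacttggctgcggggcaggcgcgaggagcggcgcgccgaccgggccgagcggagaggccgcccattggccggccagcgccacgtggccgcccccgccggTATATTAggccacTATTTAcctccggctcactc
HOXD4: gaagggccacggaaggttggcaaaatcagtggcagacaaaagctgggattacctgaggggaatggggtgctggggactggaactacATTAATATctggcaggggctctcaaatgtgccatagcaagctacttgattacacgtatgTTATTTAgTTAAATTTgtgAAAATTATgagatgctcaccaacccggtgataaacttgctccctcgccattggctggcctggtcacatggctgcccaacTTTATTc

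**Figure D1:**
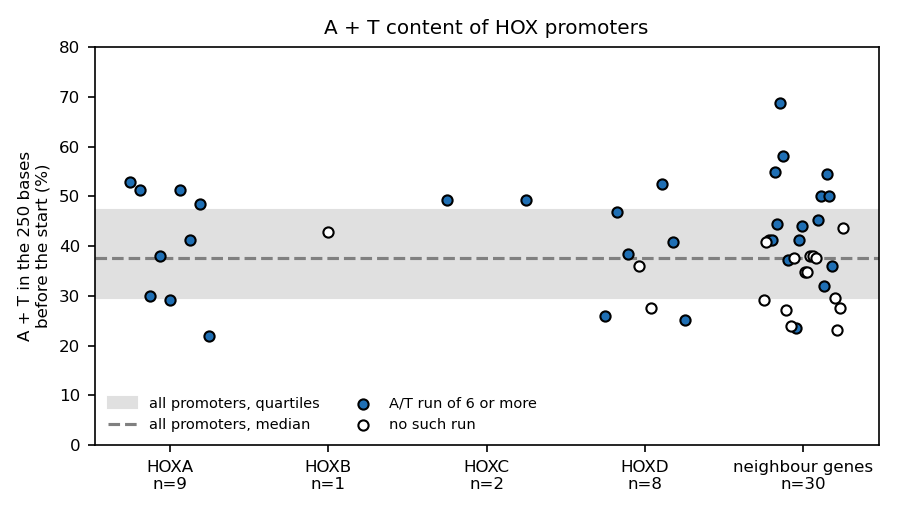
A + T content (%) of the 250 bases before the start of each HOX gene with a RefSeq promoter, by cluster, and of 30 protein-coding neighbours; each point is 1 gene, filled where a run of at least 6 A or T bases is present. The grey band and dashed line are the quartiles (29.6 and 47.2) and the median (37.6) of 15843 protein-coding promoters, and HOXA promoters lie on both sides of that median.

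HMGA1 peaks were sparser inside the 4 HOX clusters, pooled, than around them in both lists, and the clusters differed in how far this held. The 4 cores together held 20 input-list peaks in 0.57 Mb, 35.1 peaks per Mb, whereas the flanks held 813 in 8 Mb, 101.6 peaks per Mb. The density ratio of cores over flanks was 0.345 (95% interval 0.21 to 0.537, exact Clopper-Pearson on the peak counts). Over H3 the cores held 11 peaks, 19.3 per Mb, and the flanks 553, 69.1 per Mb, a ratio of 0.279 (0.139 to 0.503). Peaks covered 1.10% of the core DNA and 3.33% of the flank DNA over input, and 0.668% and 2.13% over H3. Over all autosomes the lists held 132.4 (input) and 90.9 (H3) peaks per Mb. Whole chromosomes differed too, with 117.8 and 62.8 on chromosome 7 (HOXA), 83.0 and 55.9 on chromosome 17 (HOXB), 152.5 and 112.4 on chromosome 12 (HOXC), and 160.3 and 116.9 on chromosome 2 (HOXD). The HOXD and HOXB flanks were thus close to their chromosomes, at 149.5 and 79.0 over input. The HOXA flanks, at 100.5, were below theirs, and the HOXC flanks, at 77.5, were far below theirs. Neighbouring peaks of 1 library are not independent, so these intervals are narrower than the true uncertainty. The pooled ratio depends on HOXB: without that locus it was 0.204 over input and 0.0734 over H3. Leaving out peak-free stretches of at least 100 kb, in cores and flanks alike, raised the pooled ratio to 0.55 and 0.611. This removed the whole HOXA core, over H3 the HOXC core, and 107.9 kb (input) and 112.1 kb (H3) of the HOXB core. All 20 and 11 core peaks and all 813 and 553 flank peaks were kept. These 2 values therefore do not set the same loci against each other in cores and flanks.

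**Figure D2:**
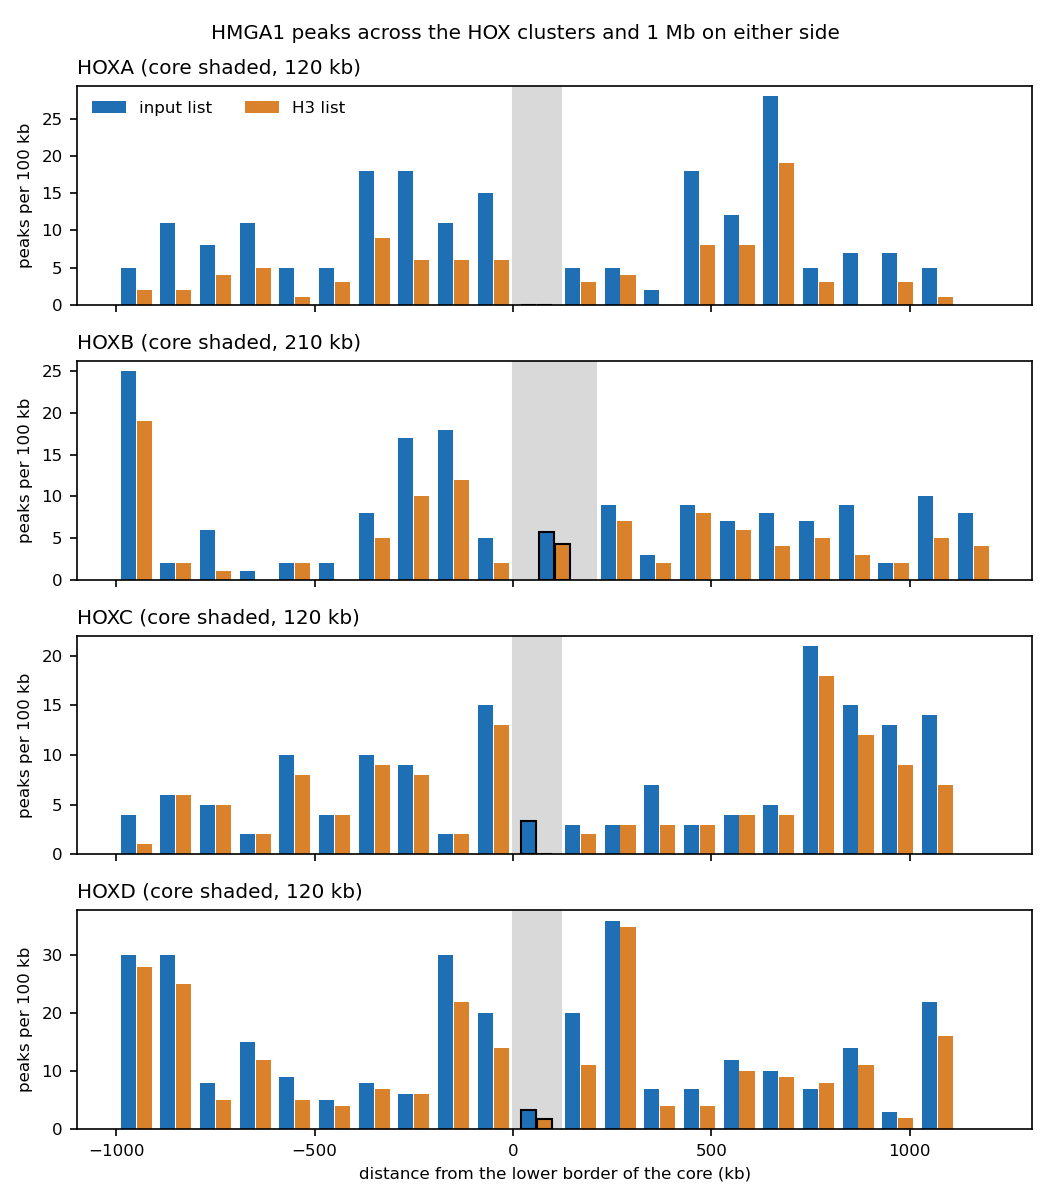
Number of HMGA1 peaks per 100 kb (bars; blue, input list; orange, H3 list) against distance in kb from the lower border of each core, for the 4 HOX loci; the core is shaded and its bars, outlined, give its mean density. The HOXA core is empty in both lists, and the highest bars of the HOXD locus, 36 and 35 peaks, stand 100 to 200 kb beyond the right border of its core.

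The HOXA core carried no HMGA1 peak in either list. Its flanks held 201 peaks over input, 100.5 per Mb, and 93 over H3, 46.5 per Mb. The ratio of core over flanks was 0, with a 95% upper limit of 0.309 over input and 0.674 over H3 by the same exact interval. The empty stretch ran past the core on both sides, from 27126399 to 27264269 (137.9 kb) over input and from 27126360 to 27310557 (184.2 kb) over H3. Stretches between neighbouring peaks at least this long made up 0.17% of all such stretches over input and 0.332% over H3. On chromosome 7 alone it was 0.149% (28 stretches) and 0.52% (52 stretches). These shares count stretches and are not weighted by length. The median spacing of summits was 3.26 kb over input and 4.17 kb over H3, so long stretches hold a larger share of the DNA than of the count. Among 16 flank windows of 120 kb the input list had 3 to 31 peaks with a median of 10, so none was as empty as the core, and the H3 list had 0 to 21 with a median of 4, with 1 window also at 0. In the whole autosomal genome, outside 1 Mb blocks with no peak, 1.87% of 120 kb windows held no input-list peak and 4.72% held no H3-list peak. A peak list gives no control level where no peak was called, so the amount of input DNA and H3 over the HOXA core was not measured here.

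HOXA also had the highest share, among the 4 loci, of flank peaks at the lowest control level. Reads at each summit were worked back from the fold and p-value that the authors deposited, and the control level is given relative to its floor, the genome-wide minimum that the peak caller uses (2.78 reads for input, 2.19 for H3). Of the HOXA flank peaks 75.1% (151 of 201) had the input control at this floor, whereas the share was 3.16% (5 of 158) in the HOXB flanks, 5.81% (9 of 155) in the HOXC flanks and 4.68% (14 of 299) in the HOXD flanks, and 36.4% over all input-list peaks. The H3 control was at its floor at 86.0% of the HOXA flank peaks in the H3 list, against 5.05%, 1.63% and 28.6% in the HOXB, HOXC and HOXD flanks and 42.9% over the whole list. HOXA flank peaks had a median of 16 HMGA1 reads over input (quartiles 14 and 20), and those of HOXB, HOXC and HOXD had 21, 22 and 20. At called HOXA flank peaks, HMGA1 reads and control levels were thus both low. A peak over a low control can be called with few reads, so these medians do not measure HMGA1 over the locus. The share at the floor was not computed for chromosome 7 as a whole, so it is not shown to be particular to the HOXA locus. Any link to the empty core was not tested.

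HOXD had the densest flanks of the 4 loci and few peaks in its core. The core held 4 peaks over input, 33.3 per Mb, against 149.5 per Mb in its flanks, a ratio of 0.223 (0.0604 to 0.577). Over H3 it held 2 peaks, 16.7 per Mb, against 119.0 per Mb, a ratio of 0.14 (0.0169 to 0.512). No flank window of 120 kb was as sparse: the 16 windows held 5 to 34 peaks over input and 5 to 32 over H3. Among autosomal windows of this length 14.4% held 4 input-list peaks or fewer and 17.1% held 2 H3-list peaks or fewer, so such a low count was not rare in the genome at large. The 100 kb next to the core held 20 input-list peaks on either side, and the following 100 kb held 30 on the left and 36 on the right. Further out, from 200 to 500 kb, the 100 kb bins held 5 to 8 on the left and 7 to 12 on the right. High counts were not confined to the surroundings of the core. The bins from 800 to 900 and from 900 to 1000 kb held 30 each on the left, and 3 and 22 on the right.

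The 4 HOXD core peaks over input all lay in the lower part of the core. From 176996922 to 177065273, 68.4 kb, there was none. The highest was the peak from 176996617 to 176996921, with 29 HMGA1 reads, 5.51-fold over input and 6.29-fold over H3 (folds are the authors' own, per peak). The others over input were from 176940745 to 176940940 (17 reads, 4.51-fold), from 176942075 to 176942847 (16 reads, 4.09-fold) and from 176960887 to 176961087 (15 reads, 3.70-fold). Of these only the peak from 176942075, at 773 bp the widest of any HOX core, was also called over H3, where it was 3.77-fold. EVX2 is the gene next to HOXD on this side in the RefSeq order, but whether these peaks lie in it was not analysed here.

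HOXB showed the smallest difference between core and flanks. It held 12 peaks over input, 57.1 per Mb, against 79.0 per Mb in its flanks, a ratio of 0.723 whose interval of 0.366 to 1.30 spans 1. Over H3 the 9 core peaks gave 42.9 per Mb, against 49.5 per Mb, a ratio of 0.866 (0.385 to 1.71). Of 8 flank windows of 210 kb, 2 held 12 input-list peaks or fewer and 4 held 9 H3-list peaks or fewer. Over the autosomes the shares of such windows were 23.5% and 33.8%. Counting only peaks whose −log10 q-value reached 5 put the ratio at 1.05 over input, and at 0.581 over H3, so no direction is given for HOXB.

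The HOXB peaks were gathered in the upper part of the core. Only 2 of the 12 lay in the first 25 kb, followed by a stretch of 107.9 kb without an input-list peak from 46620201 to 46728080, which takes up 51.4% of the core. The remaining 10 summits stood 128.3 to 194.5 kb from the lower border. HOXB genes are known to be packed closely from HOXB1 to HOXB9, with HOXB13 set apart at the far end, but the positions of these genes on hg19 were not used here. The peak with the most HMGA1 reads in any HOX core was from 46748549 to 46748879, with 34 reads. It was 8.91-fold over input, where the control was at 1.05 times its floor, but 4.62-fold over H3, where the control was at 2.29 times its floor. By contrast the peak from 46764104 to 46764672 (29 reads) had 6.68-fold over input and 6.48-fold over H3, and the peak from 46618054 to 46618329 (29 reads) had 6.80-fold and 6.38-fold. The peak from 46742092 to 46742431 (28 reads) was 6.97-fold over input and 5.27-fold over H3, and that from 46774091 to 46774558 (25 reads) 4.77-fold and 5.71-fold. The other 7 input-list peaks had 16 to 22 reads and folds of 3.63 to 4.62, and 4 of them were also called over H3. In the H3 list these 4 were the peaks from 46730464 to 46730650 (17 reads, 3.85-fold), from 46732915 to 46733104 (17 reads, 3.59-fold), from 46765632 to 46765902 (21 reads, 3.50-fold) and from 46794356 to 46794731 (20 reads, 4.19-fold).

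HOXC had 4 low peaks in its core over input and none over H3. The core density was 33.3 per Mb, against 77.5 per Mb in the flanks, a ratio of 0.43 with an interval of 0.116 to 1.12 that spans 1. Over H3 the core held 0 peaks and the flanks 123, 61.5 per Mb, and the ratio of 0 had an upper limit of 0.507. These flanks were themselves sparse for chromosome 12, which held 152.5 (input) and 112.4 (H3) peaks per Mb. In 16 flank windows of 120 kb the input list had 2 to 25 peaks, with 4 windows at 4 or fewer. The H3 list had 1 to 21, with none at 0. Over the autosomes, outside 1 Mb blocks with no peak, 14.4% of 120 kb windows held 4 input-list peaks or fewer. No H3-list peak was held by 4.72% of them. The most enriched of the 4 core peaks was from 54405966 to 54406189, with 20 reads and 4.85-fold over input. The other 3 had 12 to 14 reads and folds of 3.41 to 3.87. Widths were 187 to 224 bp, against a median of 298 bp in the HOXC flanks.

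**Figure D3:**
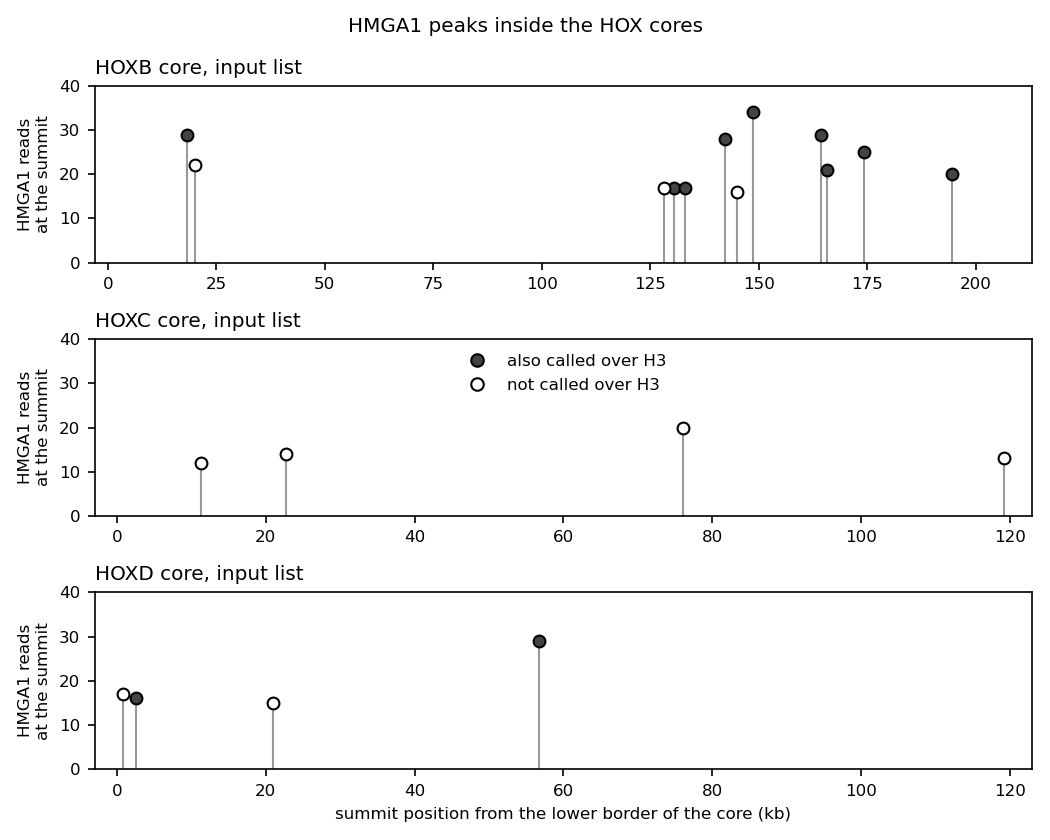
HMGA1 reads at the summit of each of the 20 input-list peaks inside the HOXB, HOXC and HOXD cores, against the position of the summit in kb from the lower border of the core; filled points were also called over H3. HOXB peaks gather beyond 128 kb, and none of the 4 HOXC peaks, which have 12 to 20 reads, is filled.

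Where the core borders are set decides many of the core members. The last HOXC core summit was 119.2 kb into the core of 120 kb, and the first HOXD core summit 0.847 kb into it. Outside, the nearest input-list summits stood 3.79 kb (left) and 14.5 kb (right) from HOXA, 12.4 and 7.07 kb from HOXB, 4.69 and 8.65 kb from HOXC, and 10.6 and 5.42 kb from HOXD. With each core widened by 20 kb on both sides, the cores held 39 peaks over input and 20 over H3, and the pooled ratios were 0.528 and 0.395. The wider HOXA core held 4 peaks over input and 1 over H3 (ratios 0.249 and 0.133), the HOXB core 15 and 11 (0.759 and 0.889), the HOXC core 10 and 4 (0.822 and 0.412), and the HOXD core 10 and 4 (0.418 and 0.208). All these ratios lay within the intervals given above and below 1.

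**Figure D4:**
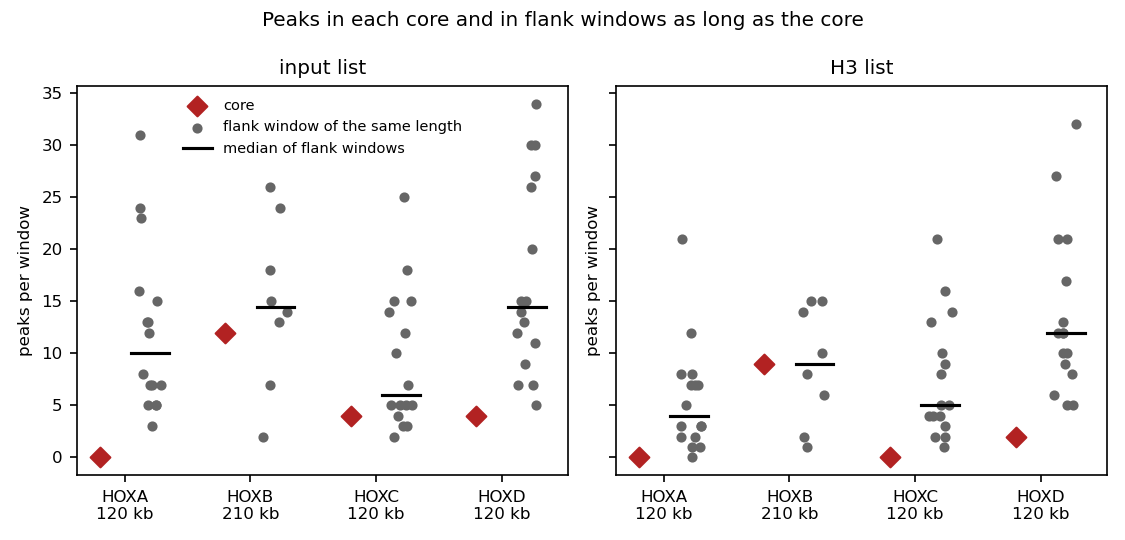
Number of peaks in each core (red diamond) and in consecutive flank windows as long as that core (grey points; bar, their median), for the input list (left) and the H3 list (right). The HOXA and HOXD cores lie below all their 16 input-list windows, while HOXB, with 12 peaks, lies among its 8 windows of 2 to 26 peaks.

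Where peaks were called in the cores, their pooled median heights over input were close to those of the flanks, but not in every cluster. The 20 core peaks over input had a median fold of 4.51 (quartiles 3.995 and 5.02) and 18.5 HMGA1 reads (16 and 25.8). The 813 flank peaks had 4.50 (3.70 and 5.82) and 19 reads (16 and 26), and all input-list peaks had 4.50 and 19 reads. The pools mix the loci differently: no core peak was at HOXA, but 201 of the flank peaks were. The 12 HOXB core peaks had medians of 4.61-fold and 21.5 reads, against 4.60 and 21 in the HOXB flanks. The 4 HOXC core peaks had 3.78-fold and 13.5 reads, against 4.91 and 22 in their flanks. The 4 HOXD core peaks had 4.30-fold and 16.5 reads, against 4.50 and 20. Peaks with at least 25 reads made up 30.0% (6 of 20) of the core peaks and 29.2% of the flank peaks, against 28.3% of the whole list. In the H3 list the core peaks had a median fold of 4.62 and 25 reads, and the flank peaks 5.16 and 23 reads, against 5.25 and 23 reads in the whole list. Peaks with at least 25 reads were 6 of the 11 core peaks and 42.3% of the flank peaks there, against 41.3% of the whole list. The tallest peaks were in the flanks: core reads reached 34, but flank reads reached 62. Input control levels were 1.17 times the floor at core peaks and 1.24 times at flank peaks, and H3 control levels 1.27 and 1.15 times. These medians cover called peaks only and do not measure HMGA1 between them.

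Each flank had its own leading peaks, by q-value. On the left of HOXA it was the peak from 27085612 to 27085891, 44.2 kb from the core, with 44 HMGA1 reads, 11.9-fold over input and 11.2-fold over H3. It was followed by the peak from 26733105 to 26733857 (32 reads, 8.73-fold over input and 8.21-fold over H3). On the right of HOXA the peaks from 27793874 to 27794179 (32 reads, 8.73-fold) and from 27406583 to 27406864 (31 reads, 8.46-fold) led over input, and that from 27945045 to 27945349 (34 reads, 8.55-fold) led over H3, ahead of the peak from 27793874 (8.07-fold). No HOXA flank peak had more than 44 reads.

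The HOXB flanks reached 52 reads. Left of the core, 78.7 kb away, the peak from 46521090 to 46521469 had 52 reads, 9.73-fold over input and 11.5-fold over H3. Next over input was the peak from 45625315 to 45625592 (45 reads, 10.01-fold), and over H3 that from 45641865 to 45642180 (51 reads, 9.84-fold). On the right the peak from 47070153 to 47071468 was 1316 bp wide, the widest member of either list, with 50 reads, 9.36-fold over input and 10.2-fold over H3. Behind it stood the peaks from 46835647 to 46835965 over input (39 reads, 8.77-fold) and from 47731016 to 47731336 over H3 (42 reads, 10.6-fold).

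The HOXC flanks held the summit with the most reads of all members. This was the peak from 53493334 to 53493741 in the left flank, with 62 reads, 10.5-fold over input and 13.5-fold over H3. The peak from 53736457 to 53736783 came next there (48 reads, 8.99-fold over input and 9.66-fold over H3). On the right the peaks from 55300178 to 55300668 (52 reads, 11.6-fold) and from 55061196 to 55061661 (51 reads, 11.4-fold) led over input, and the site from 55061196 was 12.9-fold over H3. The peak from 55013976 to 55014509 was next over H3 (49 reads, 11.6-fold). The right flank was uneven: it held 3 to 7 input-list peaks per 100 kb up to 600 kb from the core and 13 to 21 beyond.

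HOXD had the flank peak with the highest fold. It lay 863.2 kb left of the core, from 176076604 to 176077145, with 60 reads, 14.1-fold over input and 15.1-fold over H3, and ranked 1027 of the input list by q-value. Closer in, the peak from 176842749 to 176843056 had 44 reads and was 11.3-fold over input, and that from 176898019 to 176898724 had 46 reads and was 11.7-fold over H3. On the right the peak from 177248068 to 177248649, 188.3 kb from the core, had 54 reads, 14.001-fold over input and 10.9-fold over H3. The next were from 177979903 to 177980549 over input (42 reads, 9.94-fold) and from 177162262 to 177163017 over H3 (44 reads, 11.0-fold).

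The loci also differed in how many of their input-list peaks were called again over H3. Of the core peaks 11 of 20 were (55.0%, Wilson 95% interval 34.2 to 74.2) and of the flank peaks 530 of 813 (65.2%, 61.9 to 68.4), close to the 65.8% of the whole input list. By cluster the core counts were 9 of 12 in HOXB, 0 of 4 in HOXC and 2 of 4 in HOXD. Among the flanks the share was 45.8% (39.0 to 52.7) at HOXA, 61.4% (53.6 to 68.6) at HOXB, 78.1% (70.9 to 83.9) at HOXC and 73.6% (68.3 to 78.3) at HOXD. Shares for whole chromosomes were not computed, but their list sizes differed as well. Chromosome 7 (HOXA) held 18736 input-list and 9998 H3-list peaks, and chromosome 17 (HOXB) 6742 and 4542. Chromosome 12 (HOXC) held 20414 and 15045, and chromosome 2 (HOXD) 38975 and 28419. The flank shares are thus not shown to be particular to the HOX loci. Low peaks were common at HOXA, where 65 of 201 flank peaks had 14 reads or fewer. At HOXB, HOXC and HOXD it was 21 of 158, 12 of 155 and 36 of 299. In the whole input list it was 80022 of 385953, a share below that of HOXA but above those of HOXB, HOXC and HOXD. Flank peaks with 15 to 19 reads were called again in 45.8% (38 of 83) of cases at HOXA, 31.3% (15 of 48) at HOXB, 58.0% (29 of 50) at HOXC and 54.5% (54 of 99) at HOXD, against 55.4% in the whole list. With 20 to 24 reads it was 24 of 32 at HOXB, against 92.4% in the whole list. At HOXA, HOXC and HOXD it was 28 of 30, 28 of 30 and 64 of 70. With 25 reads or more it was 234 of the 237 flank peaks (98.7%), close to the 98.5% of the whole list.

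In the other direction nearly every H3-list member had an input-list peak. All 11 core peaks did, and 535 of 553 flank peaks (96.7%), against 98.3% of the whole H3 list. Of the 18 flank peaks that did not, 14 were at HOXD. At the 239 member summits whose base position was identical in the lists, the median fold was 5.51 over input and 5.50 over H3. By locus these medians were 5.22 and 5.25 at HOXA, 6.33 and 5.56 at HOXB, 5.75 and 5.49 at HOXC, and 5.26 and 5.49 at HOXD. The HMGA1 reads were multiplied by 0.787 in the H3 list, so the 2 folds differ by more than the control.

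**Figure D5:**
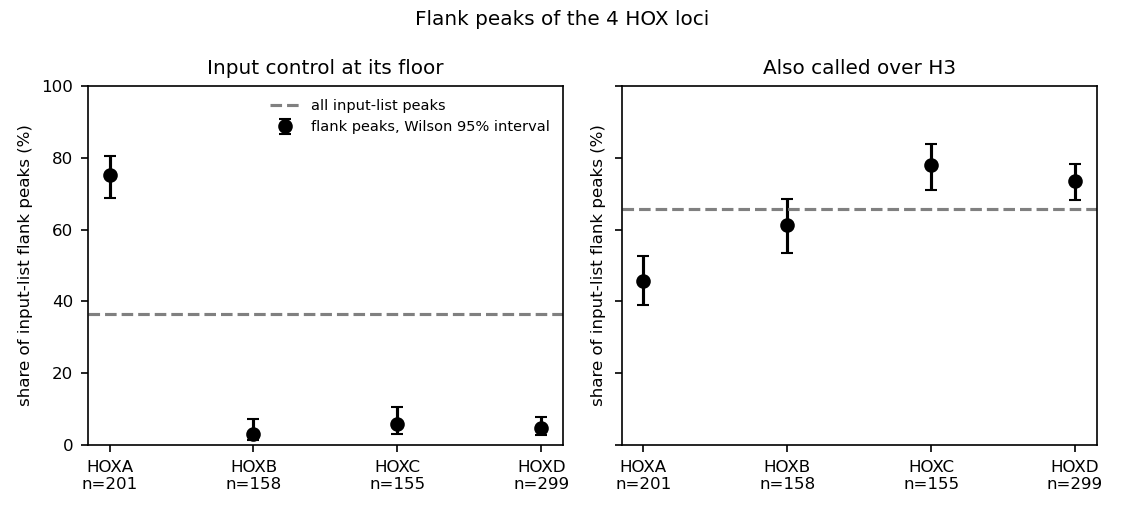
Share (%) of input-list flank peaks at each HOX locus with the input control at its floor (left) and also called over H3 (right), with Wilson 95% intervals; dashed lines are all input-list peaks, at 36.4% and 65.8%. HOXA stands at 75.1% and 45.8%, above the line on the left and below it on the right.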

How the data were processed

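HMGA1 ChIP, H3 ChIP and input DNA from DAMI cells were sequenced, 1 library each. Peaks were called with MACS2 on hg19, per the submitters' processing notes; the aligner, the read filters and the MACS2 version were not stated in the sources used here. Each deposited narrowPeak row holds a position, a summit, a fold enrichment ratio, p- and q-values as −log10, and a whole-number score, as the authors' peak caller wrote them. Peak names carry a prefix other than HMGA1, and the ChIP was taken to be HMGA1 from the names of the lists and the labels. Total read numbers are unknown. HMGA1 reads and control levels at summits were worked back from the fold and p-value in the files, taking the fold as (HMGA1 + 1)/(control + 1) and p as a Poisson tail, with HMGA1 multiplied by 0.787 in the H3 list. A whole read number fitted within 0.001 of the −log10 p for 385953 input-list and 263031 H3-list peaks, and the recovery was tested on simulated data. Sites under 8 (input list) or 11 (H3 list) reads were never called.

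Overlap means at least 1 bp. The regions, members and alternatives were chosen with earlier results of these data known. The peaks named were every core peak where a list has 10 or fewer in that core, otherwise its 5 with the highest q-value score, and the 2 with the highest score per flank and list. Promoters and gene order are from RefSeq (GRCh38.p14), and no coordinate of that build was set against the peaks. Alternatives were stricter q-values and folds, shorter flanks, wider cores, other memberships and overlaps, covered bases, peak-free stretches left out, and each locus left out. Python 3.11.15 was used with scipy 1.17.1, pandas 2.3.3, numpy 2.4.6 and matplotlib 3.10.9. Positions count from 1 on hg19.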

Additional observations from a re-analysis of the deposited data

How the results depend on the processing

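With 1 library per antibody no replicate could be left out. No paired analysis was possible because each group is a single library. Of 107 recomputed values, 95 stayed within the interval of the value reported and 12 moved outside it. Pooled, the ratio of cores over flanks stayed below 1 in all 11 alternatives of either list. It moved to 0.55 (input) and 0.611 (H3) without peak-free stretches of at least 100 kb, and to 0.204 and 0.0734 without HOXB. HOXA and HOXC (H3 list) were below 1 in all 6 alternatives that gave a value, and HOXC (input list) and HOXD in all 7. Without such stretches nothing is left of the HOXA core in either list or the HOXC core in the H3 list, so no value was had. The flank peaks of these loci still count in the pooled 0.55 and 0.611. The HOXB core lost 107.9 kb (input) and 112.1 kb (H3) in this way but none of its peaks. HOXB was above 1 over input at a fold of 4 or more (1.05), at a −log10 q-value of 5 or more (1.05) and without such stretches (1.40), and over H3 without them (1.38). Over input the HOXC ratio was 0.139 at that q-value, 0.154 at that fold and 0.268 by covered bases, and over H3 the HOXD ratio was 0.0855 at that fold and 0.219 by covered bases, all within their intervals. For flank peaks, −log10 q-values of at least 5 moved the share called over H3 to 68.5%, the median fold to 5.13 (input) and 5.64 (H3), the reads to 22 and 25, and the width to 301 bp over input, since low peaks are removed. A fold of at least 4 moved that share to 71.1%. The cause of the other changes was not tested.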
